A study of Rattus norvegicus with 8 samples.

Results

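Rat granulosa cells (GCs) expressing a constitutively active catalytic subunit of protein kinase A (PKA-CQR) were compared directly with GCs stimulated with follicle stimulating hormone (FSH), on 6 arrays and across 13915 genes. The members are all rows of the complete log2 signal table that carry a gene symbol, 13915 of 31099 probe sets. The arrays are the 3 labelled PKA-CQR lentivirus and the 3 labelled EGFP lentivirus plus FSH, 6 of the 8 arrays of the series. All cultures were GCs from ovaries of 24-day-old Sprague-Dawley rats. FSH GCs carried a control lentivirus that encodes the fluorescent protein EGFP and received FSH at 100 ng/ml for 24 hr. PKA-CQR GCs were transduced with the PKA-CQR lentivirus, without FSH, and were collected 24 hr. later. Per the methods, testosterone was present in every culture, and the 3 replicates are 3 separately collected groups of primary GCs. The other 2 arrays, of GCs with EGFP virus alone, entered no test, and their values are given only as background. The comparison has 2 limits as a model. PKA-CQR has to be made from the virus before it acts, so 24 hr. after transduction and 24 hr. with FSH are not the same time of active kinase. The viruses of the groups also differ in their inserts.

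FSH binds a G protein-coupled receptor on GCs and raises cAMP. cAMP binds the regulatory subunits of PKA and frees the catalytic subunits, which phosphorylate the transcription factor CREB and other proteins. The mutations in PKA-CQR weaken its binding to the regulatory subunits, so the kinase is active without cAMP and away from the anchoring proteins that hold the native enzyme in place. Both stimuli thus meet at PKA, and a direct comparison asks which transcripts differ when the kinase is active by itself and when the receptor is activated. In the follicle FSH drives GC growth, estradiol synthesis and LH receptor expression, whereas EGF-like factors, prostaglandins and the progesterone receptor belong to the later, ovulatory response to LH.

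A signal here is a log2 value made by the authors with RMA, and a difference is the mean log2 signal of PKA-CQR minus that of FSH, so that 1 is a 2-fold difference. The median log2 signal was 8.40 to 8.44 on the 6 arrays. Within a group, Pearson's r between arrays across genes, which are not independent replicates, was 0.993 to 0.997. The largest principal component held 54.6% of the variance, with scores of -18.0 to -14.3 for the FSH and 13.1 to 18.4 for the PKA-CQR arrays. The second held 26.4% and put both replicate 3 arrays apart from the others, at -19.0 for FSH and -10.6 for PKA-CQR. The 3′ minus 5′ difference of the beta-actin control probe sets, a sign of RNA quality, was 1.30 to 1.88 in FSH and 1.34 to 1.67 in PKA-CQR arrays. Replicate 3 had the highest value in both groups, and a part of RNA quality in the second component was not tested. The transduced kinase itself could not be checked here. *Prkaca*, the alpha catalytic subunit, had log2 signals of 8.39, 8.47 and 9.04 with FSH and 8.48, 8.33 and 8.88 with PKA-CQR. Which catalytic subunit the virus carries, and whether the probe sets read the viral transcript, are not given in the sources used here. *Prkacb*, the beta subunit, differed by 0.24 (95% interval -0.01 to 0.48, adjusted p = 0.29). Both genes stand outside the naming rule and were chosen as the possible viral insert.

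In the direct comparison 532 genes (3.82% of those tested) had a higher and 371 (2.67%) a lower signal in PKA-CQR than in FSH GCs, 903 in all (6.49%). Calls are those of limma at an adjusted p under 0.05 over all 13915 genes, with n = 3 arrays each. The 3 PKA-CQR and 3 FSH arrays did not overlap for 3175 genes (22.8%), of which 1491 were higher and 1684 lower, and this holds all 903 called genes. With the replicate number as a block, 859 genes were higher and 680 lower, and these held 531 of the 532 and 366 of the 371. The numbers were lowest without PKA-CQR replicate 1, with 258 higher and 136 lower. Without FSH replicate 2 they were 326 and 168, without PKA-CQR replicate 2 they were 354 and 190, and without PKA-CQR replicate 3 they were 320 and 189. In all 6 fits that each left out 1 array, 240 of the higher and 122 of the lower genes were called.

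Large differences were few and mostly in 1 direction. Of the called genes, 127 were at least 2-fold higher with PKA-CQR and 37 at least 2-fold lower. At 3-fold there were 40 and 8, and at 5-fold 11 and 0. The median called gene differed 1.58-fold among the higher and 1.45-fold among the lower genes. Over all genes the median difference was -0.02. The 95% interval of the difference lay within 1.5-fold either way for 12138 genes (87.2%) and within 2-fold for 13457 (96.7%). For most genes a 2-fold difference between the stimuli was therefore outside the interval that 3 and 3 arrays gave.

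**Figure D1:**
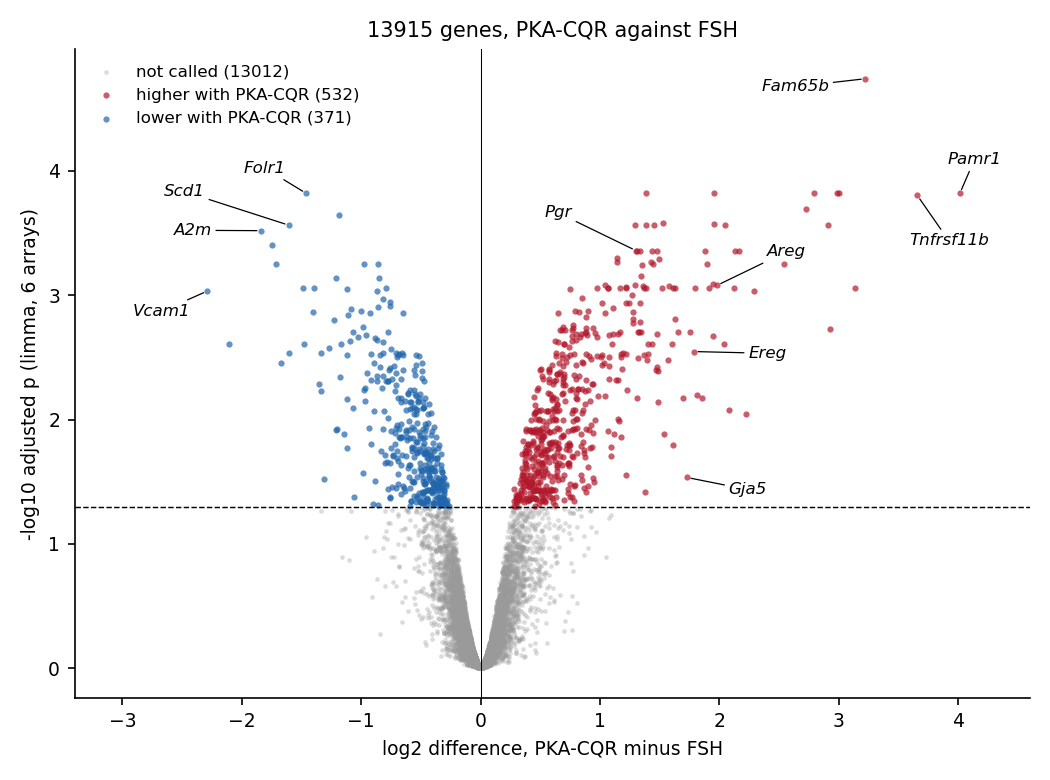
Each point is 1 of 13915 genes, with the log2 difference between PKA-CQR and FSH on the x axis and -log10 of the limma adjusted p on the y axis; the dashed line is 0.05. Red points are the 532 genes called higher with PKA-CQR and blue points the 371 called lower, and the red points reach farther from 0 (4.01 for *Pamr1*) than the blue ones (-2.29 for *Vcam1*).

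A gene higher with PKA-CQR than with FSH need not be a gene that PKA-CQR raised. For 376 of the 532 higher genes (70.7%) both EGFP arrays lay above all 6 arrays compared, so that the PKA-CQR arrays stood between the FSH and the EGFP arrays. For 32 of the 532 (6.02%) both EGFP arrays lay below all 6. Of the 127 genes at least 2-fold higher, the EGFP arrays were above all 6 for 97 (76.4%) and below all 6 for 12 (9.45%). Among the 371 lower genes the EGFP arrays were below all 6 for 279 (75.2%) and above all 6 for 2 (0.539%). Over all genes tested, 14.1% had both EGFP arrays above all 6 and 18.6% below all 6. These positions rest on 2 EGFP arrays, are given with no test, and were looked at after the calls had been made.

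The gene with the largest difference was *Pamr1*, a secreted protein with a peptidase-like domain. Its log2 signal was 6.06, 5.67 and 6.27 on the FSH arrays and 10.37, 9.72 and 9.96 on the PKA-CQR arrays, against 11.81 and 11.45 with EGFP virus alone. The groups lay more than 3 log2 units apart, and the FSH arrays were the low ones. The difference was 4.01 (SE 0.20, adjusted p = 0.000152), or 16.2-fold. *Tnfrsf11b*, which encodes osteoprotegerin, the decoy receptor for RANK ligand, had signals of 7.43, 7.55 and 7.30 with FSH and 11.54, 10.79 and 10.93 with PKA-CQR. It was 12.6-fold higher with PKA-CQR (adjusted p = 0.000158) and the single called gene among 20 TNF receptors and ligands. The smallest p belonged to *Fam65b*, now named Ripor2. Its FSH arrays read 4.72, 4.41 and 4.52 and its PKA-CQR arrays 7.83, 7.73 and 7.76, a difference of 3.22 (SE 0.09, adjusted p = 1.82e-05).

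Other genes with large positive differences encode enzymes of the cell surface and matrix, angiotensin receptors and LIM proteins. *Anpep*, the membrane aminopeptidase N, was 8.77-fold higher with PKA-CQR. *Rcan2*, a regulator of the phosphatase calcineurin, had signals of 6.14, 6.23 and 6.22 with FSH and 8.91, 9.24 and 9.44 with PKA-CQR, an 8.01-fold difference. Its EGFP arrays, at 9.37 and 9.67, overlapped the PKA-CQR arrays. *Adamts5*, an aggrecan- and versican-cleaving protease, read 10.08, 9.70 and 9.55 with FSH and 12.93, 12.63 and 12.74 with PKA-CQR, 7.94-fold higher. *Aspn*, a small leucine-rich proteoglycan of the matrix, was 7.5-fold higher. *Pdlim3*, a LIM protein that binds actinin, was 5.82-fold higher. *Nov*, the matricellular protein CCN3, was 4.66-fold higher but varied from 10.32 to 11.76 within the FSH group, and its call was lost without PKA-CQR replicate 1 (adjusted p = 0.0573). *Lmcd1*, another LIM protein, was 4.49-fold higher. The differences of the other 6 genes of this paragraph are past the threshold in each fit that left out 1 array.

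**Figure D2:**
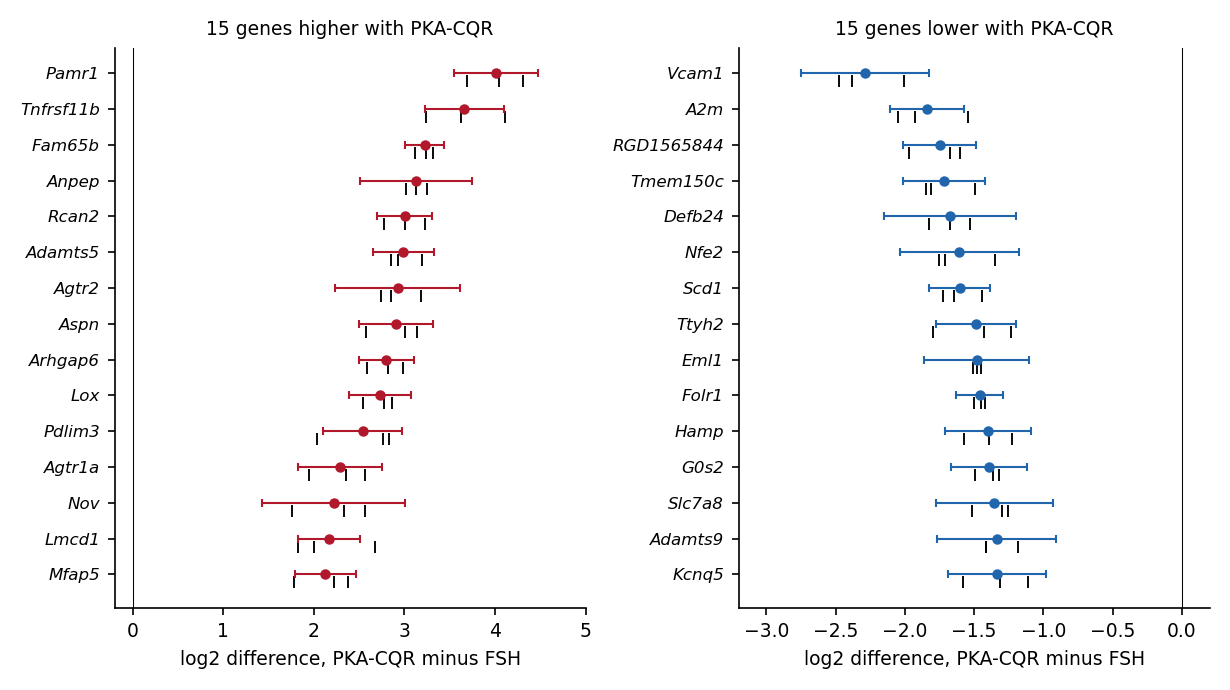
Points are the log2 differences, PKA-CQR minus FSH, of the 15 called genes (probe sets of 1 gene) with the largest positive (left) and the 15 with the largest negative (right) difference, bars are the 95% intervals of the limma fit, and black ticks are the differences of the 3 same-numbered pairs of arrays. No interval reaches 0, and the 3 ticks of each gene lie on the same side.

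EGF-like ligands released by GCs carry the LH signal to the cumulus cells around the oocyte. Amphiregulin, encoded by *Areg*, had log2 signals of 9.82, 9.79 and 10.39 with FSH and 11.95, 11.93 and 12.06 with PKA-CQR, while the EGFP arrays read 7.51 and 8.65. All 3 PKA-CQR arrays were above all FSH arrays, and both groups were above EGFP. The difference was 1.98 (SE 0.16, adjusted p = 0.000834), or 3.95-fold, and the pairs differed by 2.13, 2.15 and 1.67. Epiregulin, *Ereg*, a ligand of the same receptor, read 9.06, 9.05 and 9.78 with FSH and 10.87, 11.12 and 11.25 with PKA-CQR. It was 3.45-fold higher (SE 0.20 on the log2 scale, adjusted p = 0.00284), and FSH replicate 3 was the highest FSH array for both ligands. Neuregulin 1, *Nrg1*, a ligand of other ERBB receptors, was 1.8-fold higher (adjusted p = 0.00566), but its EGFP arrays, at 8.26 and 7.76, were above those of both groups. Of 13 measured members of the list of EGF-like ligands and ERBB receptors, 5 were higher and 1 lower (3.82% and 2.67% of all genes). The median difference was 0.12. Among the 5, 1 encodes neither a ligand nor a receptor. The 5 became 4 without FSH replicate 1 or 2 or PKA-CQR replicate 2 or 3. The lower one was *Tgfa*, transforming growth factor alpha (1.51-fold, adjusted p = 0.0492), which was called in 1 of the 6 fits that left out an array, that without PKA-CQR replicate 3. Without each of the other arrays its adjusted p was 0.0655 to 0.192.

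Promoters are shown for 4 genes because *Areg* is among the few genes of the comparison with a whole cAMP response element, the site that CREB binds. The sequences are from RefSeq (GRCr8), which has a promoter for 11048 of the genes compared. Each is the 250 bases before the annotated start, 5′ to 3′ on the gene's strand. They lie at chr14:17265642-17265891 (minus strand) for *Areg*, chr4:146948743-146948992 (plus) for *Lmcd1*, chr13:107362303-107362552 (plus) for *Lamb3* and chr3:109343796-109344045 (plus) for *Pamr1*. Capitals mark matches to the half-site TGACG on either strand. TGACGTCA, the full site, reads the same on both strands and holds 2 overlapping half-sites.
Areg: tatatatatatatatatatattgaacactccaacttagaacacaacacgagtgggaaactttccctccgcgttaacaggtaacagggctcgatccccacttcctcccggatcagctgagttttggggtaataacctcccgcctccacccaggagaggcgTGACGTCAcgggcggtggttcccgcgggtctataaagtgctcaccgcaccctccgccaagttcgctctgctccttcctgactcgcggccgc
Lmcd1: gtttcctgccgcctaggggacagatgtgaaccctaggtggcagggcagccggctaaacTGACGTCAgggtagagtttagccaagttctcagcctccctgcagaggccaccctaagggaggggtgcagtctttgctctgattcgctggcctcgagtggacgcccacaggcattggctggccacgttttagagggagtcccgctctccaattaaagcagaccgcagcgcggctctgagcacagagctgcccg
Lamb3: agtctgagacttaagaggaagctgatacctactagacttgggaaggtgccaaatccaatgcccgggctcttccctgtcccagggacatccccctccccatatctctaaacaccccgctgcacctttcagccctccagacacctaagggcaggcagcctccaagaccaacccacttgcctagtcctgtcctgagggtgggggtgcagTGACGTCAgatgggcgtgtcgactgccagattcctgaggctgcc
Pamr1: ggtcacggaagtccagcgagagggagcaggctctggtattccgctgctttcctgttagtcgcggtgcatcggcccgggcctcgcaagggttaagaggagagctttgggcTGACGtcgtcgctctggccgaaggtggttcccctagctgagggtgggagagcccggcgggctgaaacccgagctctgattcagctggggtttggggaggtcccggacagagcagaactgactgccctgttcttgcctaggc
The full site begins 91 bases before the start of *Areg*, 192 before that of *Lmcd1* and 44 before that of *Lamb3*, and *Pamr1* holds 1 half-site, which begins 141 bases before the start. *Lamb3*, a laminin chain, is not higher but 2.09-fold lower with PKA-CQR. Of the genes at least 2-fold higher, 2 of 91 promoters (2.2%) hold the full site, of those at least 2-fold lower 1 of 30 (3.33%), and of all genes compared 297 of 11048 (2.69%). For the half-site the shares are 24.2%, 16.7% and 26.2%. In all 33469 promoters of the table the full site stands in 1.59%. These matches describe letters in the window and were not tested.

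Of 18 genes of prostaglandin synthesis and reception, 3 were higher and 1 lower with PKA-CQR (3.82% and 2.67% of all genes). *Ptgs2*, the inducible cyclooxygenase of the ovulatory follicle, had signals of 8.50, 7.98 and 9.13 with FSH, 9.92, 10.17 and 10.12 with PKA-CQR and 4.97 and 4.91 with EGFP. It was 2.9-fold higher in PKA-CQR GCs (adjusted p = 0.013), with an SE of 0.26 on the log2 scale. The FSH arrays spread over more than 1 log2 unit, and the call was lost without PKA-CQR replicate 1, 2 or 3, at adjusted p = 0.0571, 0.0552 and 0.0516. *Ptges*, the prostaglandin E synthase that acts after it, was 3.04-fold higher with signals of 10.05, 9.57 and 10.10 against 11.56, 11.23 and 11.74. *Ptger3*, a receptor for prostaglandin E2, was 2.49-fold higher. *Hpgd*, the dehydrogenase that inactivates prostaglandins, was 1.73-fold lower (adjusted p = 0.00486). The other 14 of the 18 genes of this list were not called, and the list's median difference was -0.05.

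The progesterone receptor, *Pgr*, is induced by LH and required for the follicle to rupture. Its signals were 5.83, 5.92 and 6.12 with FSH, 7.19, 7.32 and 7.27 with PKA-CQR and 5.13 and 5.19 with EGFP. The groups were clearly apart, with a difference of 1.30 (SE 0.09, adjusted p = 0.000439) or 2.47-fold. In the list of 18 genes of ovulation and the cumulus matrix, 5 were higher and 1 lower (3.82% and 2.67% of all genes). The median was 0.13. The lower one is a probe set that the annotation gives to several genes and is not named. *Tnfaip6*, a hyaluronan-binding protein of the expanded cumulus that was named after its value was seen, differed by 0.61 (adjusted p = 0.0462). *Adcyap1*, the peptide PACAP, and *Snap25*, a protein of vesicle fusion, were 1.72- and 1.6-fold higher, at adjusted p = 0.045 and 0.0231. Each of these 3 genes was called in 1 of the 6 fits that left out an array. That was without PKA-CQR replicate 2 for *Tnfaip6* and *Adcyap1* and without FSH replicate 1 for *Snap25*. The 5 higher genes of the list were 3 without PKA-CQR replicate 2, 2 without FSH replicate 1 or 3, and 1, *Pgr*, without FSH replicate 2 or PKA-CQR replicate 1 or 3.

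**Figure D3:**
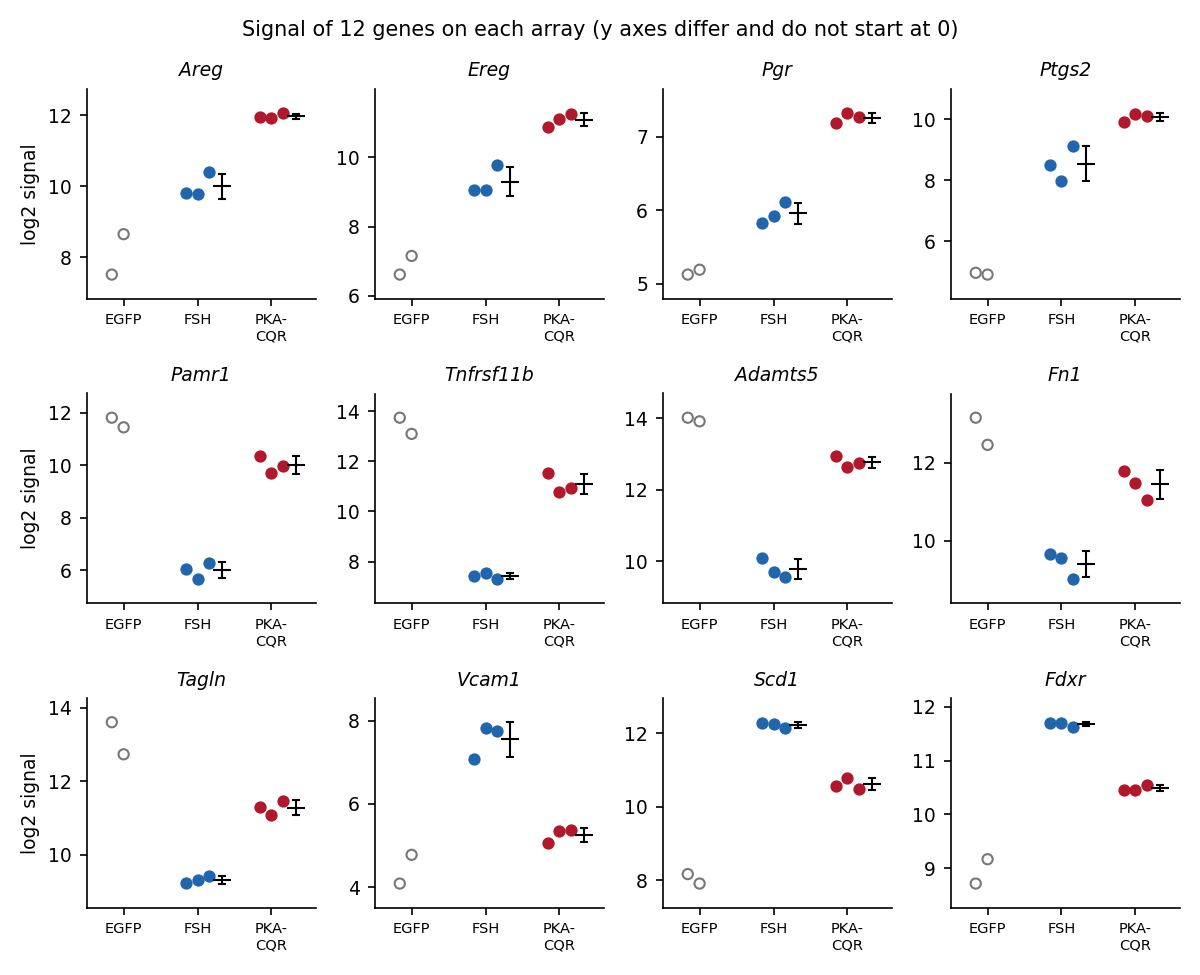
Points are the log2 signals of single arrays for 12 genes: EGFP (open, n = 2), FSH (blue, n = 3) and PKA-CQR (red, n = 3), with the mean and SD of the FSH and PKA-CQR arrays as black bars. For *Areg*, *Ereg*, *Pgr* and *Ptgs2* the FSH arrays lie between the EGFP and PKA-CQR arrays, for *Pamr1*, *Tnfrsf11b*, *Adamts5*, *Fn1* and *Tagln* the PKA-CQR arrays lie between the EGFP and FSH arrays, and for *Vcam1*, *Scd1* and *Fdxr* the FSH arrays are the highest.

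Genes of the extracellular matrix gave the highest number of higher calls, in the longest list. A larger share was called higher in the list of EGF-like ligands and ERBB receptors (5 of 13). The same holds for the list of angiotensin and endothelin genes (4 of 13). Of 49 matrix genes measured, 14 were higher and 2 lower (3.82% and 2.67% of all genes), with a median difference of 0.17. *Fn1*, fibronectin, had signals of 9.65, 9.54 and 9.01 with FSH and 11.80, 11.49 and 11.04 with PKA-CQR, 4.11-fold higher (SE 0.22 on the log2 scale, adjusted p = 0.00245). The replicate 3 arrays were the lowest of their groups, and the 3 pairs differed alike, by 2.15, 1.95 and 2.03. *Mfap5*, a glycoprotein of elastic microfibrils, was 4.37-fold higher and *Col11a1*, a fibrillar collagen chain, 3.69-fold. The EGFP arrays of all 3 were above the PKA-CQR arrays. The lower genes were *Lamb3* and *LOC313641*, which current annotation names as perlecan, *Hspg2* (1.4-fold, adjusted p = 0.0164). The 14 higher genes became 10 without FSH replicate 2 or PKA-CQR replicate 1 or 2, and *LOC313641* lost its call without each of the same arrays. Of 17 genes for enzymes that modify collagen, 3 were higher and 2 lower. *Lox*, lysyl oxidase, which crosslinks collagen and elastin, read 10.56, 10.47 and 10.10 with FSH and 13.34, 13.02 and 12.96 with PKA-CQR, 6.63-fold higher. *P4ha3*, a subunit of collagen prolyl hydroxylase, was 4.23-fold higher, although its FSH arrays ranged from 5.50 to 6.75. Another such subunit, *P4ha2*, was 1.54-fold lower (adjusted p = 0.0122), a call lost without PKA-CQR replicate 1 or 3, and *Loxl1*, a relative of *Lox*, was 1.29-fold lower and called in only 1 of the 6 fits that left out an array, that without FSH replicate 3.

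Of 27 genes of the actin cytoskeleton and serum response factor targets, 6 were higher and 0 lower (3.82% and 2.67% of all genes). The difference was above 0 for 24, and the median was 0.28. With the replicate block 11 were higher, and the 6 were 4 without any single array other than FSH replicate 3. *Tagln*, the actin-binding protein transgelin, had signals of 9.22, 9.31 and 9.43 with FSH, 11.29, 11.07 and 11.47 with PKA-CQR and 13.61 and 12.74 with EGFP. The PKA-CQR arrays stood between the others, 3.88-fold above FSH (adjusted p = 0.000268). *Tpm1*, a tropomyosin, was 1.74-fold higher (adjusted p = 0.00468). Of 19 genes of the YAP and TEAD pathway, which responds to cell tension, 4 were higher and 0 lower at a median of 0.12, and with the block 7 were higher and 2 lower. *Cyr61*, the matricellular protein CCN1, read 9.35, 9.48 and 9.98 against 11.23, 10.89 and 11.41 with PKA-CQR, 2.97-fold higher. *Crim1*, a membrane protein that binds BMPs, was 2.32-fold higher and *Tgfb2*, transforming growth factor beta 2, 2.64-fold. *Ctgf*, CCN2, was uncalled at a difference of 0.47 (95% interval 0.19 to 0.76, adjusted p = 0.0702) and called with the block (adjusted p = 0.0197).

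Genes for 2 receptors of angiotensin II, a vasoactive peptide, were higher with PKA-CQR. *Agtr2*, the type 2 receptor, read 7.03, 6.61 and 6.27 with FSH and 10.21, 9.34 and 9.12 with PKA-CQR, 7.6-fold higher (SE 0.30 on the log2 scale, adjusted p = 0.00186). *Agtr1a*, a type 1 receptor, read 5.11, 5.11 and 5.84 against 7.68, 7.47 and 7.78, a 4.89-fold difference. EGFP arrays were higher still, at 11.94 and 11.37 for the first and 9.97 and 9.61 for the second. In the list of 13 angiotensin and endothelin genes 4 were higher and 0 lower (3.82% and 2.67% of all genes). All 4 were receptors, and they were 2 without FSH replicate 2 or PKA-CQR replicate 1. Among 26 genes of the VEGF, angiopoietin and hypoxia system 5 were higher and 0 lower. *Angpt2*, angiopoietin 2, a context-dependent antagonist of the Tie2 receptor, had signals of 8.30, 8.50 and 8.63 with FSH and 9.71, 9.70 and 9.90 with PKA-CQR, 2.46-fold higher (adjusted p = 0.000834). The 5 were 1, *Angpt2*, without PKA-CQR replicate 1 and 3 without PKA-CQR replicate 2.

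Genes from other lists were also higher. Calls in a list are to be read against the 3.82% of all genes called higher and the 2.67% called lower. *Bdnf*, brain-derived neurotrophic factor, which GCs secrete, read 6.63, 7.16 and 7.51 with FSH and 8.98, 8.50 and 9.26 with PKA-CQR, 3.52-fold higher, and was the single call among 14 neurotrophin genes. *Fgf18* was 2.71-fold higher, the single call among 22 genes of FGF receptors, Sprouty proteins and KIT ligand. *Pdk4*, the kinase that closes pyruvate dehydrogenase, was 3.78-fold higher, with signals of 7.55, 8.18 and 7.85 against 9.94, 9.78 and 9.62. *Nr0b1*, DAX1, a repressor of steroidogenic genes, read 8.13, 7.38 and 7.90 with FSH and 9.94, 9.17 and 9.38 with PKA-CQR, 3.23-fold higher. *Dkk3*, a secreted protein of the Dickkopf family, was 3.48-fold higher. *Cdh11*, a cadherin of mesenchymal cells, was 4.36-fold higher. The list of *Pdk4* had 1 higher and 1 lower of 29, and that of *Nr0b1* 2 and 1 of 20. For *Dkk3* the list had 2 higher and 6 lower of 39, and for *Cdh11* 4 and 5 of 41. All 6 genes of this paragraph had EGFP arrays above both groups.

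Vascular cell adhesion molecule 1, *Vcam1*, the integrin ligand, had the largest negative difference. Its signals were 7.07, 7.82 and 7.75 with FSH, 5.07, 5.35 and 5.36 with PKA-CQR and 4.09 and 4.78 with EGFP. No FSH array came within 1.5 log2 units of a PKA-CQR array, and the difference was -2.29 (SE 0.20, adjusted p = 0.000926), or 4.88-fold. *A2m*, alpha-2-macroglobulin, a broad protease inhibitor, read 8.76, 8.89 and 8.45 with FSH and 6.84, 6.84 and 6.90 with PKA-CQR, 3.58-fold lower. *Defb24*, a beta-defensin, was 3.19-fold lower and *Hamp*, the iron hormone hepcidin, 2.64-fold. *Nfe2*, a basic leucine zipper transcription factor known from blood cells, read 7.92, 7.72 and 8.37 against 6.16, 6.37 and 6.66, 3.04-fold lower. *Folr1*, folate receptor alpha, was tightly measured at 11.03, 10.89 and 11.03 with FSH and 9.52, 9.46 and 9.58 with PKA-CQR, 2.75-fold lower (log2 SE 0.07). *Slc7a8*, an exchanger of neutral amino acids, *Adamts9*, a versican-cleaving protease, and *Kcnq5*, a potassium channel, were 2.56-, 2.53- and 2.52-fold lower. *Eml1*, a microtubule protein, was 2.79-fold lower. *RGD1565844*, *Tmem150c* and *Ttyh2* were 3.36-, 3.29- and 2.81-fold lower. All of these kept their calls in each fit that left out 1 array.

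GCs need cholesterol as the precursor of steroids. All 23 genes of sterol synthesis measured had a difference below 0, and 9 were called lower and 0 higher, at a median of -0.34 against -0.02 for all genes. *Tm7sf2*, a sterol reductase, read 10.99, 10.99 and 11.18 with FSH and 10.12, 9.79 and 10.32 with PKA-CQR, 1.97-fold lower (adjusted p = 0.0058). *Mvd*, mevalonate decarboxylase, was 1.83-fold lower and *Ebp*, a sterol isomerase, 1.82-fold (SE 0.06 on the log2 scale, adjusted p = 0.000557). *Idi1*, isopentenyl diphosphate isomerase, was not called at -0.18 (95% interval -0.42 to 0.06). The 9 calls depended on the arrays and were 4 without FSH replicate 1 or 2 or PKA-CQR replicate 2, 3 without PKA-CQR replicate 1 and 5 without PKA-CQR replicate 3. In the list of 19 genes for fatty acid synthesis and desaturation, 6 were lower and 0 higher, at a median of -0.26, and 10 were lower with the block. They were 4 without FSH replicate 1 or PKA-CQR replicate 3, and 3 without FSH replicate 2 or PKA-CQR replicate 1 or 2. *Scd1*, a stearoyl-CoA desaturase, was farthest from 0, with signals of 12.29, 12.24 and 12.14 with FSH, 10.56, 10.79 and 10.49 with PKA-CQR and 8.16 and 7.91 with EGFP. The groups were separated by more than 1 log2 unit, and the difference was -1.61 (SE 0.09, adjusted p = 0.000274), or 3.04-fold. The row the file names *Scd* (Scd2 in current annotation) was 1.31-fold lower, a call lost without any array but FSH replicate 3, and was named after its value was seen. *G0s2*, an inhibitor of lipolysis in no list, was 2.63-fold lower. *Srebf1*, the transcription factor of lipid synthesis, was uncalled at -0.34 (95% interval -0.58 to -0.10, adjusted p = 0.113) and called with the block (adjusted p = 0.0183).

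Genes that store, take up or export cholesterol were mixed. Of 17, 2 were higher and 6 lower. *Soat1*, which makes cholesterol esters, was 1.57-fold lower (adjusted p = 0.00305), and *Lipe*, which cleaves them in the cytosol, 1.46-fold. *Lipa*, which cleaves them in lysosomes, was 1.84-fold higher, and *Cav1*, caveolin 1, 2.37-fold higher. The 6 lower genes were 4 without FSH replicate 2 or PKA-CQR replicate 2 and 3 without PKA-CQR replicate 1 or 3.

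In steroid hormone synthesis, 4 of 18 genes were lower, 0 higher and 15 below 0, at a median of -0.20, and 7 were lower and 1 higher with the block. *Fdxr*, ferredoxin reductase, which feeds electrons to the mitochondrial P450 enzymes, read 11.70, 11.69 and 11.63 with FSH, 10.45, 10.46 and 10.55 with PKA-CQR and 8.72 and 9.17 with EGFP. The arrays of a group lay close together, and the difference was -1.19 (SE 0.07, adjusted p = 0.000227), or 2.28-fold. *Hsd11b1*, which activates glucocorticoids, was 2.09-fold lower and *Hsd11b2*, which inactivates them, 1.65-fold. The fourth was *Cyp11a1*, the side-chain cleavage enzyme that makes pregnenolone, named here after its values were seen. It read 13.66, 13.70 and 13.47 with FSH and 12.99, 13.26 and 13.09 with PKA-CQR, 1.41-fold lower (adjusted p = 0.0255), and was called without FSH replicate 3 or PKA-CQR replicate 2 only, the adjusted p without each other array being 0.0723 to 0.108. Its electron donor *Fdx1* differed by -0.14 (95% interval -0.30 to 0.01). *Star*, the protein that carries cholesterol into mitochondria, read 13.23, 13.24 and 12.58 against 12.28, 12.80 and 12.07, with the groups overlapping. It was uncalled at -0.64 (95% interval -1.18 to -0.09, adjusted p = 0.198) and called with the block (adjusted p = 0.021).

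The genes *Cyp19a1*, *Lhcgr*, *Prlr* and *Inha*, which mark FSH action in the follicle, were not called. *Cyp19a1*, aromatase, which makes estradiol, read 10.72, 9.86 and 11.04 with FSH and 11.71, 11.47 and 11.73 with PKA-CQR, against 4.84 and 6.29 with EGFP. The PKA-CQR arrays were all above the FSH arrays, but FSH replicate 2 stood low. The difference of 1.10 (95% interval 0.46 to 1.73, adjusted p = 0.0587) was not called in the main fit and was called with the block (adjusted p = 0.015) and without FSH replicate 2 or 3 (adjusted p = 0.035 and 0.0202). *Lhcgr*, the LH receptor, differed by 0.62 (95% interval -0.02 to 1.26, adjusted p = 0.292, and 0.033 with the block), again with FSH replicate 2 lowest at 9.95 beside 10.82 and 10.97. *Prlr*, the prolactin receptor, differed by -0.40 (95% interval -0.77 to -0.02, adjusted p = 0.246, and 0.0493 with the block). *Inha*, the inhibin alpha subunit, differed by -0.01 (95% interval -0.23 to 0.21). *Gja1*, connexin 43, the main gap junction protein of GCs, read 14.73 to 14.78 with FSH and 14.75 to 14.76 with PKA-CQR. Its relative *Gja5*, connexin 40, read 8.22, 8.59 and 7.79 with FSH and 10.12, 10.53 and 9.13 with PKA-CQR. *Gja5* was 3.31-fold higher (SE 0.35 on the log2 scale, adjusted p = 0.0292) and was called in 1 of 6 fits that left out an array, that without PKA-CQR replicate 3, the adjusted p of the others being 0.056 to 0.131.

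Of 23 genes for PKA subunits, inhibitors and anchoring proteins, 4 were higher and 0 lower, and 18 had an interval within 1.5-fold. With the block 6 were higher and 1 lower. Over all genes tested, 3.82% were called higher and 2.67% lower. *Pkig* and *Pkia* encode inhibitor peptides of the catalytic subunit and were 1.54- and 1.33-fold higher, at adjusted p = 0.00809 and 0.0122. *Akap12*, an anchoring protein, read 7.52, 7.98 and 8.04 with FSH and 9.12, 8.97 and 8.97 with PKA-CQR, 2.25-fold higher. EGFP arrays were above both groups for all 3. The 4 became 2 without FSH replicate 2 or PKA-CQR replicate 1 or 2. Of 21 cAMP phosphodiesterases and adenylyl cyclases 1 was called, *Pde4b*, a phosphodiesterase that cAMP induces, which was 1.58-fold higher (adjusted p = 0.0169), a call lost without FSH replicate 2 or PKA-CQR replicate 2 or 3. Its EGFP arrays, at 5.40 and 5.94, were far below FSH at 9.67 to 10.04. Of 14 RGS genes 1 was called, *Rgs1*, which turns off G protein signals. It read 5.33, 5.23 and 5.26 with FSH and 6.36, 6.90 and 6.57 with PKA-CQR, 2.53-fold higher (adjusted p = 0.00165).

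Among 32 early genes that respond to cAMP, 3 were higher and 0 lower, at a median of 0.08. *Nr4a3*, an orphan nuclear receptor, read 7.03, 7.10 and 7.31 with FSH, 8.39, 8.47 and 8.23 with PKA-CQR and 6.22 and 6.37 with EGFP, and was 2.33-fold higher (adjusted p = 0.000876). It stood above EGFP in both groups. The 3 became 1, *Nr4a3*, without PKA-CQR replicate 3. *Egr1*, an immediate early factor, differed by 0.13 (95% interval -0.05 to 0.30). Among 27 genes of IGF and insulin signalling, 3 were higher and 2 lower. *Sgk1*, a kinase related to AKT that FSH induces in GCs, read 13.11, 13.22 and 13.31 with FSH and 12.12, 12.20 and 12.44 with PKA-CQR, 1.95-fold lower (adjusted p = 0.0021). *Igfbp7*, an IGF-binding protein, was 1.52-fold higher. The 3 higher genes became 1 without PKA-CQR replicate 1, and the 2 lower became 1, *Sgk1*, without FSH replicate 2 or 3 or PKA-CQR replicate 1 or 2. Of 23 genes of the p38 MAPK cascade, GADD45 proteins and MAP kinase phosphatases, 1 was higher and 2 lower, each by less than 1.5-fold, and none of the 3 kept its call in more than 1 of the 6 fits that left out an array.

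In the TGF-beta and BMP system, 3 of 29 genes were higher and 3 lower. The ligands *Tgfb2* and *Bmp2* were higher, the second 1.55-fold (adjusted p = 0.00294). The lower genes were *Id1*, *Id2* and *Id4*, repressors of helix-loop-helix factors that BMPs induce. *Id4* read 10.40, 10.54 and 10.06 with FSH and 9.39, 9.62 and 9.19 with PKA-CQR, 1.91-fold lower (adjusted p = 0.0116, and 0.0626 without PKA-CQR replicate 1). *Id2* and *Id1* were 1.65- and 1.4-fold lower. *Id2* lost its call without FSH replicate 2 or PKA-CQR replicate 1 or 3 (adjusted p = 0.0507 to 0.0609), and *Id1* without FSH replicate 1 or 2 or PKA-CQR replicate 2 or 3 (0.0803 to 0.102). *Id3* was uncalled at -0.28 (95% interval -0.46 to -0.09) and called with the block (adjusted p = 0.0337). In Wnt and Notch signalling, 2 of 39 genes were higher and 6 lower, 10 lower with the block, with 28 below 0 and a median of -0.10. *Wnt4*, a ligand needed for ovarian development, read 11.18, 11.14 and 11.20 with FSH and 10.29, 10.31 and 10.46 with PKA-CQR, 1.76-fold lower (adjusted p = 0.00108), and *Wnt6* was 1.5-fold lower. The 6 lower genes were 3 without PKA-CQR replicate 1, and the 2 higher were 1, *Dkk3*, without FSH replicate 2 or PKA-CQR replicate 1 or 3.

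**Figure D4:**
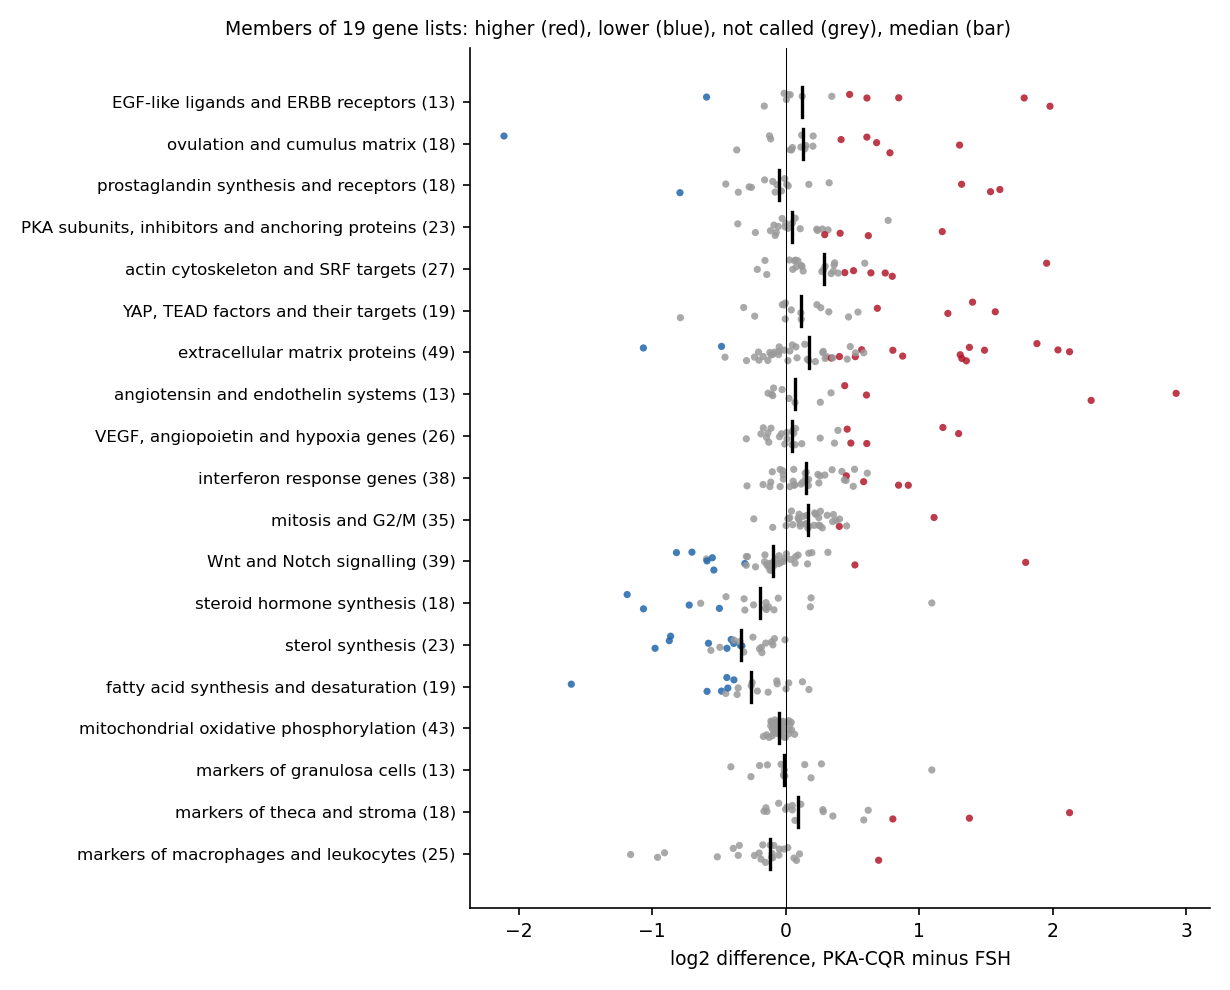
Each point is a gene of 1 of 19 lists (number measured in parentheses), placed by its log2 difference, PKA-CQR minus FSH, with red for called higher, blue for called lower, grey for not called and a black bar at the median. Sterol synthesis lies wholly below 0 (median -0.34), the actin genes mostly above it (median 0.28), and oxidative phosphorylation stays within 0.2 of it.

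Some lists held 0 called genes, where 6.49% of all genes tested were called in either direction. At that share a list of 26 or 28 genes would hold few calls, so 0 is near it. None of 43 genes of mitochondrial oxidative phosphorylation was called, 42 had a 95% interval within 1.5-fold, and the differences ran from -0.17 to 0.07. At an unadjusted limma p under 0.05, and with the block, the count was also 0. Of the 26 genes of the BCL2 family and caspases 0 were called and all 26 intervals were within 1.5-fold, with 4 members at an unadjusted p under 0.05 and 1 called with the block. Of 28 ER chaperones and genes of the unfolded protein response 0 were called, with 24 intervals within 1.5-fold, 2 members at an unadjusted p under 0.05 and 2 called with the block. Division genes leaned to PKA-CQR by small amounts. Of 35 genes of mitosis and G2/M, 33 had a difference above 0, at a median of 0.17, but 2 were called, and 7 with the block. *Kif23*, a kinesin of the cleavage furrow, read 10.76, 10.58 and 10.96 with FSH and 11.84, 11.77 and 12.03 with PKA-CQR, 2.16-fold higher (adjusted p = 0.00204), while *Cdk1*, the kinase of mitotic entry, was 1.32-fold higher and called in 1 of the 6 fits that left out an array, that without FSH replicate 1. Of 38 interferon response genes 4 were higher and 0 lower, 8 with the block, at a median of 0.15. *Oas1a*, an oligoadenylate synthetase, read 10.18, 9.63 and 9.86 with FSH and 10.84, 10.75 and 10.83 with PKA-CQR, 1.89-fold higher (adjusted p = 0.00703), and *Ifit3* was 1.8-fold higher. The EGFP arrays of *Oas1a*, at 10.23 and 10.34, lay between the groups. The 4 were 2 without FSH replicate 1 or 2 or PKA-CQR replicate 3. A part of the 2 viruses in these values was not tested.

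Of 13 measured markers of granulosa cells, 0 were called in either direction, at a median of -0.01, and the differences ran from -0.41 to 1.10. Calls between the 2 groups cannot check the granulosa cell label, because a cell type that both share would give none. With the block, and at an unadjusted p under 0.05, 2 were higher and 1 lower. *Inha* had log2 signals of 13.88 to 14.17 on all 6 arrays and *Foxl2*, a transcription factor of the ovary, 12.95 to 13.36. *Foxl2* was uncalled at 0.27 (95% interval 0.09 to 0.45) and called with the block (adjusted p = 0.0388). The arrays give no detection calls, so no marker can be called absent. Of 18 markers of theca and stroma, 3 were higher, 0 lower and 15 not called, at a median of 0.09. The 3, *Dcn*, *Col3a1* and *Mfap5*, are also in the matrix list, so the 2 lists are not independent. The list's mean log2 signal, which includes these 3, was 7.25 to 7.41 on the FSH and 7.56 to 7.81 on the PKA-CQR arrays. *Dcn*, the proteoglycan decorin, was 2.6-fold higher (adjusted p = 0.0385), a call lost without FSH replicate 2 or PKA-CQR replicate 1 or 2, and *Col3a1*, a collagen chain, 1.75-fold (adjusted p = 0.00682). Of 14 markers of smooth muscle and pericytes, 3 were higher, among them *Tagln* and *Mcam* (2.68-fold), and *Abcc9*, a regulator of potassium channels, was 2.17-fold lower. The list's mean was 6.78 to 6.86 with FSH and 7.04 to 7.11 with PKA-CQR. Of 25 markers of macrophages and leukocytes, 1 was higher, *Cd14* (1.62-fold), and 20 were below 0, with means of 6.27 to 6.43 and 6.04 to 6.28. In this list 1 was higher and 5 lower with the block, and 0 to 3 were lower with 1 array left out. Endothelial markers had 1 of 15 called (0 without any array but FSH replicate 3), those of the surface epithelium 1 of 10 (0 without FSH replicate 2 or PKA-CQR replicate 1 or 3), those of the oocyte 1 of 6 and those of erythroid cells 0 of 5. In such bulk samples, fewer cells of a type and less RNA per cell cannot be told apart, and the part of other cells in the matrix and cytoskeletal differences was not tested.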

How the data were processed

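RNA of rat GC cultures was hybridised to Affymetrix rat genome arrays, 1 per culture. The authors deposited log2 signals per probe set made with RMA, which corrects background, normalizes quantiles over the arrays and summarizes probes. Quantile scaling removes differences between arrays in the overall distribution of signal. Of 31099 probe sets, 57 controls and 17128 without a symbol were left out, and 13915 were compared in limma 3.58.1 (R 4.3.3, lmFit and eBayes) on 6 arrays, with Benjamini-Hochberg adjustment over all 13915 and a threshold of 0.05. A 95% interval is that of the fitted difference. The number of arrays limits the precision, and p-values measure the spread between 3 GC preparations. Deviations of same-numbered arrays correlated at 0.23, 0.44 and 0.62. FSH replicate 1 also correlated with PKA-CQR replicate 2, at 0.32. The methods name 3 separately collected GC groups, so the replicate number was also fitted as a block. Alternatives were that block, other scalings, filters, variance models, a beta-actin covariate, array weights, each array left out and the methods' t-test. The deposited table with fewer rows repeats the same values. RMA processing is named in the deposited files, whereas MAS5.0 is named in the methods. Named are the 5 marker genes, the 15 called genes with the largest difference each way (1 of the higher ones is not reported here), up to 3 called members each way of each list and the brightest or methods-relevant uncalled members. Members and lists were chosen with earlier results of these data known. The scripts were tested on simulated data.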

Additional observations from a re-analysis of the deposited data

How the results depend on the processing

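With 3 arrays each, the number of called genes depended on the model more than the direction did. The 532 higher and 371 lower genes became 859 and 680 with the replicate block, 925 and 791 with the replicate as a random block, 1040 and 945 with array weights, and 852 and 748 with the beta-actin difference as a covariate. When every probe set was tested, named or not, 860 were higher and 507 lower. The counts fell to 324 and 157 with a minimum of 1.5-fold and to 127 and 37 with 2-fold. The methods' t-test called 71 and 47 after Benjamini-Hochberg adjustment, and 136 and 95 at the unadjusted threshold of 0.001. Leaving out each array gave 258 to 523 higher and 136 to 381 lower genes. The cause of these shifts was not tested. Centring each array on its median gave 508 and 405.

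Of the genes named in the text, 106 were called, and none changed direction under any alternative. The replicate block ended the call of *Kcne1* and called *Cyp19a1*, *Lhcgr*, *Star*, *Prlr*, *Ctgf*, *Srebf1*, *Foxl2* and *Id3*, and changed no other call of a named gene. The methods' t-test kept 28 of the 106. Sign changes were limited to 3 uncalled genes with differences near 0. *Prkaca* was -0.23 to 0.14 with 1 array left out, 0.032 with array weights and 0.0052 with the covariate. *Gja1* was -0.019 to 0.0070 with 1 array left out and 0.018 with array weights. *Inha* was -0.10 to 0.040 with 1 array left out, 0.11 with array weights and 0.0029 with the covariate. Dim probe sets have compressed differences on the RMA scale, and the files give no detection calls.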

Other observations

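Of 46 potassium and calcium channel subunits, 4 had a higher and 4 a lower signal in PKA-CQR GCs (3.82% and 2.67% of all genes). The median log2 difference was 0.03. *Kcnk2*, the background channel TREK-1, had log2 signals of 6.71, 6.62 and 6.85 with FSH and 8.18, 8.07 and 8.41 with PKA-CQR, and was 2.81-fold higher (adjusted p = 0.000515). *Kcnab1*, an accessory beta subunit, was 2.11-fold higher and *Kcnk6*, another background channel, 1.97-fold. *Kcnq1*, a voltage-gated channel, read 9.88, 10.13 and 10.01 with FSH and 8.75, 9.22 and 9.13 with PKA-CQR, 1.96-fold lower (adjusted p = 0.00553). Its EGFP arrays, at 6.48 and 7.20, lay below both groups. The partner subunit *Kcne1* was 1.31-fold lower (adjusted p = 0.0468), which was called in 1 of the 6 fits that left out an array and not called with the replicate block (adjusted p = 0.054). The 4 lower genes were 2 without FSH replicate 2 or 3 or PKA-CQR replicate 2 or 3. The 4 higher were 3 without FSH replicate 2 or PKA-CQR replicate 1 or 2.

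Of 17 genes of sphingosine phosphate and LPA signalling, 4 were higher, all receptors, 2 were lower and 11 were not called. The median was -0.01, and among all genes 3.82% were higher and 2.67% lower. *Lpar1*, an LPA receptor, read 5.78, 6.27 and 5.69 with FSH and 7.09, 7.18 and 7.04 with PKA-CQR, 2.27-fold higher (adjusted p = 0.00392). *S1pr3*, a sphingosine phosphate receptor, was 1.74-fold higher. *Sphk1*, sphingosine kinase, was 1.46-fold lower (adjusted p = 0.0082) and *Enpp2*, autotaxin, which makes LPA, 1.58-fold lower (adjusted p = 0.0397). The 4 higher genes were 2 and the 2 lower were 1 without any single array other than FSH replicate 3. Of 15 plasminogen activators and serpins, 3 were higher and 0 lower, and *Serping1*, the C1 inhibitor, read 5.55, 5.61 and 5.31 against 7.06, 6.76 and 6.75, 2.58-fold higher. It was the single call without PKA-CQR replicate 1 or 2. None of these differences was set against another cause, and no hypothesis was tested.

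Among 17128 probe sets without a gene symbol, 383 (2.24%) were higher and 197 (1.15%) lower with PKA-CQR when every probe set was tested together.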
